A study of Mus musculus with 41 samples.

Results

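CUT&RUN (CNR) peaks of SOX9, of the MYC tag of transgenic SOX9 and of the histone methyltransferases MLL3 and MLL4 (MLL3/4) were examined at 9 genes of EGF receptor signalling. The genes were 3 receptors (*Egfr*, *Erbb2* and *Erbb3*), 5 ligands (*Areg*, *Ereg*, *Btc*, *Hbegf* and *Tgfa*) and 1 inhibitor (*Errfi1*), out of 21938 protein-coding genes. The rule that defines them is their place in the pathway, and they were chosen with earlier results of these data known. A peak was assigned to a gene where it overlapped the gene body or the 50 kb to either side of it (mm10), and these windows covered 1.24 Mb. They were 109 kb (*Areg*) to 266 kb (*Egfr*) long, against a median of 117 kb over all protein-coding genes. Peak numbers per gene were not adjusted for this length. Overlapping peaks of the 16 pooled peak lists were merged into elements, of which 164 of the 86613 in the series lay in the windows. The 13 elements within reach of both *Areg* and *Ereg* were counted once.

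The in vivo samples were epidermal stem cells (EpdSCs) of the back skin of male CD1 mice. The mice carried K14rtTA and TRE-myc-Sox9, so that doxycycline (DOX) switched on MYC-tagged SOX9 in cells with an active keratin 14 promoter. The sort took cells without CD31, CD45, CD117, CD140a and CD34 that were high in CD49f and Ly6A. SOX9 CNR was made before DOX (D0, at 21 days of age) and after 1, 2 and 6 weeks (W1, W2 and W6, at 28, 35 and 63 days), and MLL3/4 CNR at D0, W1 and W2. The W12 samples came from newborn skin grafted onto Nude mice, with DOX for 12 weeks, so the weeks of DOX, the age of the mice and grafting cannot be told apart. The cultured samples were keratinocytes grown from EpdSCs, and they had MYC-tagged SOX9 in its full form (WT-SOX9), without the transactivation domain (dTA-SOX9) or without the HMG domain that binds DNA (dHMG-SOX9). Their labels also give the K14rtTA and TRE-myc-Sox9 genotype, whereas the study's methods describe lentiviral constructs in primary cells of newborn male pups. Cells of all 3 kinds received DOX at 1 µg/ml, and WT-SOX9 cells were also profiled without DOX. The comparisons of dTA-SOX9 and dHMG-SOX9 cells with cells without DOX thus set one construct's cells against another's, and the effect of DOX and the difference between the cells cannot be told apart there. Each of the 16 groups had 2 samples, pooled into 1 list, so no spread between replicates was available and no test between groups was made. The 95% Wilson intervals given with shares cover counting error over peaks only. Fewer cells with a bound site and less signal per cell cannot be told apart in such bulk samples.

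The SOX9 lists rested on 13.1 to 32.5 M fragments, as implied by the RPKM of 1 fragment (30.7 to 76.4), so that the weakest listed peak had 24 to 59 fragments at its maximum. For the MYC-tag lists the numbers were 4.04 to 6.09 M fragments and 8 to 11. The pooled MLL3/4 lists hold unscaled coverage, their depth is unknown, and their signals were not compared between lists.

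Receptors of the EGF receptor family sit in the plasma membrane of basal keratinocytes, and their ligands are made as membrane-bound precursors that proteases shed. Ligand binding pairs the receptors and starts signalling to RAS and MAP kinases, which in the epidermis is known to sustain proliferation and to restrain differentiation, whereas the product of *Errfi1* (also called Mig6) binds the active receptor kinase and switches it off. MLL3/4 place monomethylation on histone H3 at enhancers, and SOX9 is a transcription factor of hair follicle stem cells that the adult epidermis normally lacks. A CNR peak shows where an antibody found its target on chromatin and does not show which gene an element controls, nor how much RNA the gene makes. Of the epidermal marker genes *Krt5*, *Krt14*, *Itga6*, *Itgb4* and *Trp63*, 4 of 5 had an MLL3/4 peak within 1 kb of a transcription start at D0 (all but *Itgb4*). Of the markers of cells that the sort removes, 0 of 4 had one, and of other skin cells, *Cd34* included, 0 of 4. In windows of 50 kb, however, *Pecam1* had 18 MLL3/4 peaks at D0, within the range of the epidermal markers (5 to 23), and the other markers of both lists had 0 to 3. In cultured cells without DOX the numbers were 2 of 5, 1 of 4 (*Pecam1*) and 0 of 4.

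SOX9 peaks were few at these genes before DOX and more numerous with it, as they were over the whole lists, which held 792 peaks at D0. The windows of the 9 genes held 1 SOX9 peak at D0, and 31, 44, 48 and 21 at W1, W2, W6 and W12. At D0 only the window of *Egfr* held a SOX9 peak, 1 of 9, against 6.04% of all protein-coding genes. With DOX a peak was found at 7, 8, 8 and 7 of 9 genes at W1, W2, W6 and W12, against 52.4%, 57.5%, 58.8% and 39.8% of all genes. The density of peaks in the 9 windows was 25.0 per Mb at W1 and 38.7 per Mb at W6, against 7.78 and 10.1 per Mb over the windows of all protein-coding genes. The lists with DOX also differed in length (15651, 18657, 20579 and 9745 peaks from W1 to W12). When all 4 lists were shortened to the same number of strongest peaks, the 9 windows held 25, 33, 29 and 21 peaks, so W6 was no longer above W2. The highest number was at *Errfi1* at W1 and W2 and at *Tgfa* at W6 and W12, as the plot of peak numbers by gene and list shows.

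**Figure D1:**
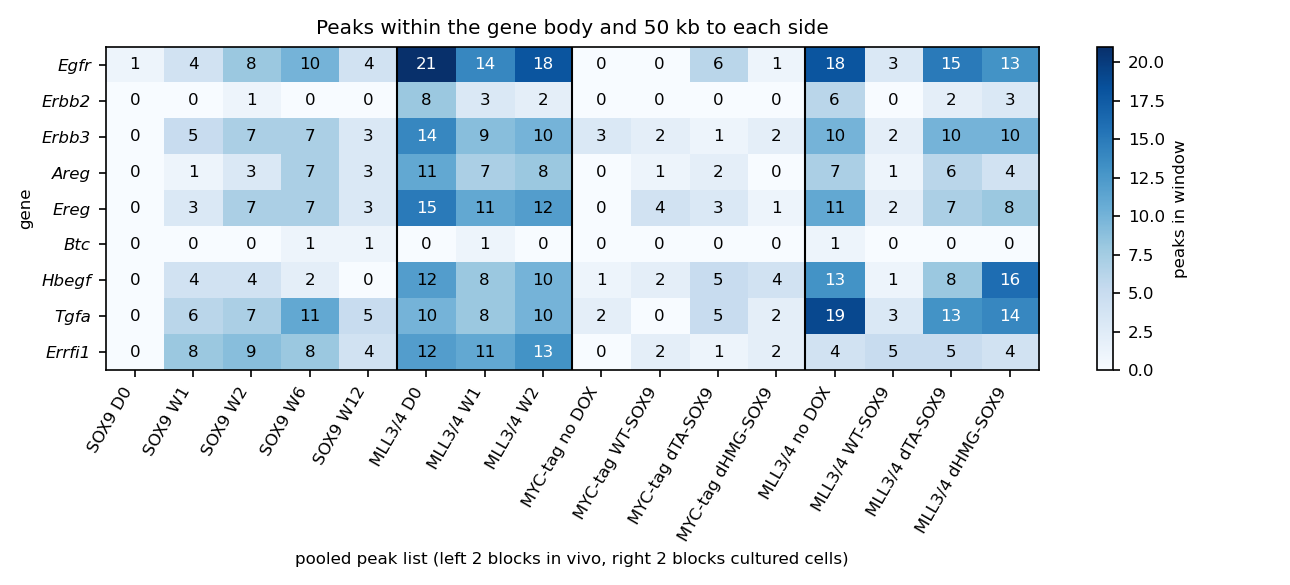
Number of peaks in the window of each gene (rows) in each of the 16 pooled lists (columns; vertical lines separate SOX9 and MLL3/4 in vivo from MYC-tag and MLL3/4 in culture). *Egfr*, whose window was the longest (266 kb), had the most MLL3/4 peaks at D0 (21), and *Erbb2* and *Btc* held at most 1 SOX9 peak at any time.

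Among the 58 elements with SOX9 at any time from W1 to W12, 15 held it at all 4 times (25.9%, interval 16.3 to 38.4%), against 18% of the 28386 such elements of the series. Of the others, 11 held SOX9 at 3 times, 13 at 2 times and 19 at 1 time. Of the 58 elements, 15 lay at promoters, 21 in introns, 1 in an exon and 21 between genes, and for 37 the nearest start was that of one of the 9 genes. SOX9 first appeared at W1 at 29 elements, at W2 at 14 and at W6 at 14, and at no element first at W12. Where SOX9 came first at W1, 24 of 29 elements had MLL3/4 at D0 (82.8%, 65.5 to 92.4%), against 66.4% in the whole series. Where it came first at W6, 3 of 14 had MLL3/4 at D0 (21.4%, 7.57 to 47.6%), against 22.7% in the whole series. The early elements thus lay on prior MLL3/4 more often than the late ones, both at these genes and over all elements.

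Of the 26 elements that held SOX9 at 3 or 4 of the times with DOX, 7 had a SOX consensus word beside the maximum of at least 1 SOX9 peak. For these 7 the sequence is shown at the highest-ranked of the peaks that hold a word, so that its letters can be read. The word was beside the maximum of all 4 SOX9 peaks in Errfi1-18, Egfr-32 and Errfi1-20, of 4 of 7 in Ereg-7, of 2 of 3 in Errfi1-15 and of 2 of 4 in Tgfa-18. In Tgfa-9 it was beside 1 of 4, a W6 peak of 2687 RPKM, and the other 3 peaks of that element ranked higher in their lists. The SOX word was CCATTGT on either strand. Its variant CCTTTGT was also searched, as was GCATTGT with another first base, and the last variant taken was GCTTTGT with both. The AP1 word was TGACTCA. The words of GATA factors were AGATAAC and also its variant AGATAAG, and the RUNX word was AACCACA. Each sequence is of the mm10 plus strand (GRCm38.p6), reaches 50 bases to the left and right of the middle of the maximum, and has these words in capitals. Elements are numbered along the chromosome within the first gene that reaches them. The sequences come from chr4:150872333-150872433 (Errfi1-18), chr5:91037862-91037962 (Ereg-7), chr11:16857349-16857449 (Egfr-32), chr4:150865547-150865647 (Errfi1-15), chr4:150890119-150890219 (Errfi1-20), chr6:86283302-86283402 (Tgfa-18) and chr6:86220373-86220473 (Tgfa-9).
Errfi1-18: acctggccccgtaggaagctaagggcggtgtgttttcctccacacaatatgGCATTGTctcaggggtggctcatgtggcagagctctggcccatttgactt
Ereg-7: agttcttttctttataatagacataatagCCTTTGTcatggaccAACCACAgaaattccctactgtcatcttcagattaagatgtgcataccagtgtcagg
Egfr-32: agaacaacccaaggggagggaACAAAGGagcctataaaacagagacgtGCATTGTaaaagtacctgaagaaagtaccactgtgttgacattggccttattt
Errfi1-15: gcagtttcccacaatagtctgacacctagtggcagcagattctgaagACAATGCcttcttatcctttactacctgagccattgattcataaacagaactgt
Errfi1-20: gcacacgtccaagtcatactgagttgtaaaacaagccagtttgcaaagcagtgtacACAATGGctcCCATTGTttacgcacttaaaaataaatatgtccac
Tgfa-18: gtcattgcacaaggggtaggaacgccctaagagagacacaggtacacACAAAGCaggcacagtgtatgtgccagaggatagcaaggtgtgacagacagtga
Tgfa-9: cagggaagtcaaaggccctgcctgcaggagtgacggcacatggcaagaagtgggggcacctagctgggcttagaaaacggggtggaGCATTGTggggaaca

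In Errfi1-20 a pair of SOX words lay 3 bases apart on opposite strands, reading away from each other. Such a pair, with 3 to 5 bases between the words, was searched for after the sequences had been seen. It was found in 1 SOX9 peak of the 9 genes in each list from W1 to W12 and in 0.173%, 0.123%, 0.170% and 0.226% of all SOX9 peaks of these lists. Over all SOX9 peaks at the 9 genes, a SOX word was present in 7 of 31 at W1 (22.6%, 11.4 to 39.8%), 7 of 44 at W2, 12 of 48 at W6 and 6 of 21 at W12 (28.6%, 13.8 to 50.0%). The whole lists held one in 18.5%, 15.5%, 18.8% and 24.8% of their peaks, inside the intervals of the genes at each time. For the AP1 word the shares were 22.6%, 15.9%, 25.0% and 23.8% at the 9 genes, against 16.2%, 15.7%, 23.5% and 29.9% of the lists. A GATA word was seen in at most 1 and the RUNX word in at most 3 of the SOX9 peaks of the 9 genes at any of these times, and over the whole lists they were in 1.49 to 3.18% and 2.06 to 3.43% of the peaks. The word lists are short, and a match is a description of the letters and not a mapped binding site.

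*Errfi1* (chr4:150853919-150868892, plus strand), the feedback inhibitor, carried the SOX9 peak with the highest total signal of the 9 windows at W1, W2 and W12, and the runner-up at W6, after one at *Ereg*. Its window held 0 SOX9 peaks at D0 and 8, 9, 8 and 4 at W1, W2, W6 and W12. As many or more were found at 2.16% of all genes at W1. The element Errfi1-18 (chr4:150870735-150873085), 17991 bp downstream of the gene start and past the gene's end, reached a maximum of 5993, 8022, 7010 and 4274 RPKM at these times. By total signal its peak ranked 139 of 15651 at W1, 48 of 18657 at W2, 119 of 20579 at W6 and 320 of 9745 at W12. MLL3/4 was present there in each of the 7 MLL3/4 lists, in vivo and in culture. The cultured WT-SOX9 cells also had a MYC-tag peak in this element, with a maximum of 5253 RPKM, and none of the other MYC-tag lists did.

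Errfi1-13 (chr4:150862540-150863408), in an intron of *Errfi1*, had no MLL3/4 peak at D0 and one each at W1 and W2, which did not overlap each other. Its SOX9 maximum was 6454, 7793, 6800 and 4182 RPKM at W1, W2, W6 and W12. In cultured WT-SOX9 cells a MYC-tag peak of 8536 RPKM, ranked 373 of 6671 by total signal, lay in it together with an MLL3/4 peak that the cells without DOX lacked. It was the only element of the 9 windows with a gained MLL3/4 peak both in vivo and in WT-SOX9 cells that also held SOX9 in vivo and the MYC tag in culture. Errfi1-20 (chr4:150889566-150890609), which lies between *Errfi1* and *Park7*, held SOX9 with 5705, 7640, 4995 and 3309 RPKM at the 4 times but no MLL3/4 peak in any list. Within the gene, Errfi1-12 and Errfi1-15 held SOX9 at W1, W2 and W6 and Errfi1-17 at W1 and W2, and none of them was in the W12 list, the shortest of the 4. At an annotated start of *Errfi1* itself a SOX9 peak was listed only at W2 (3514 RPKM).

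**Figure D2:**
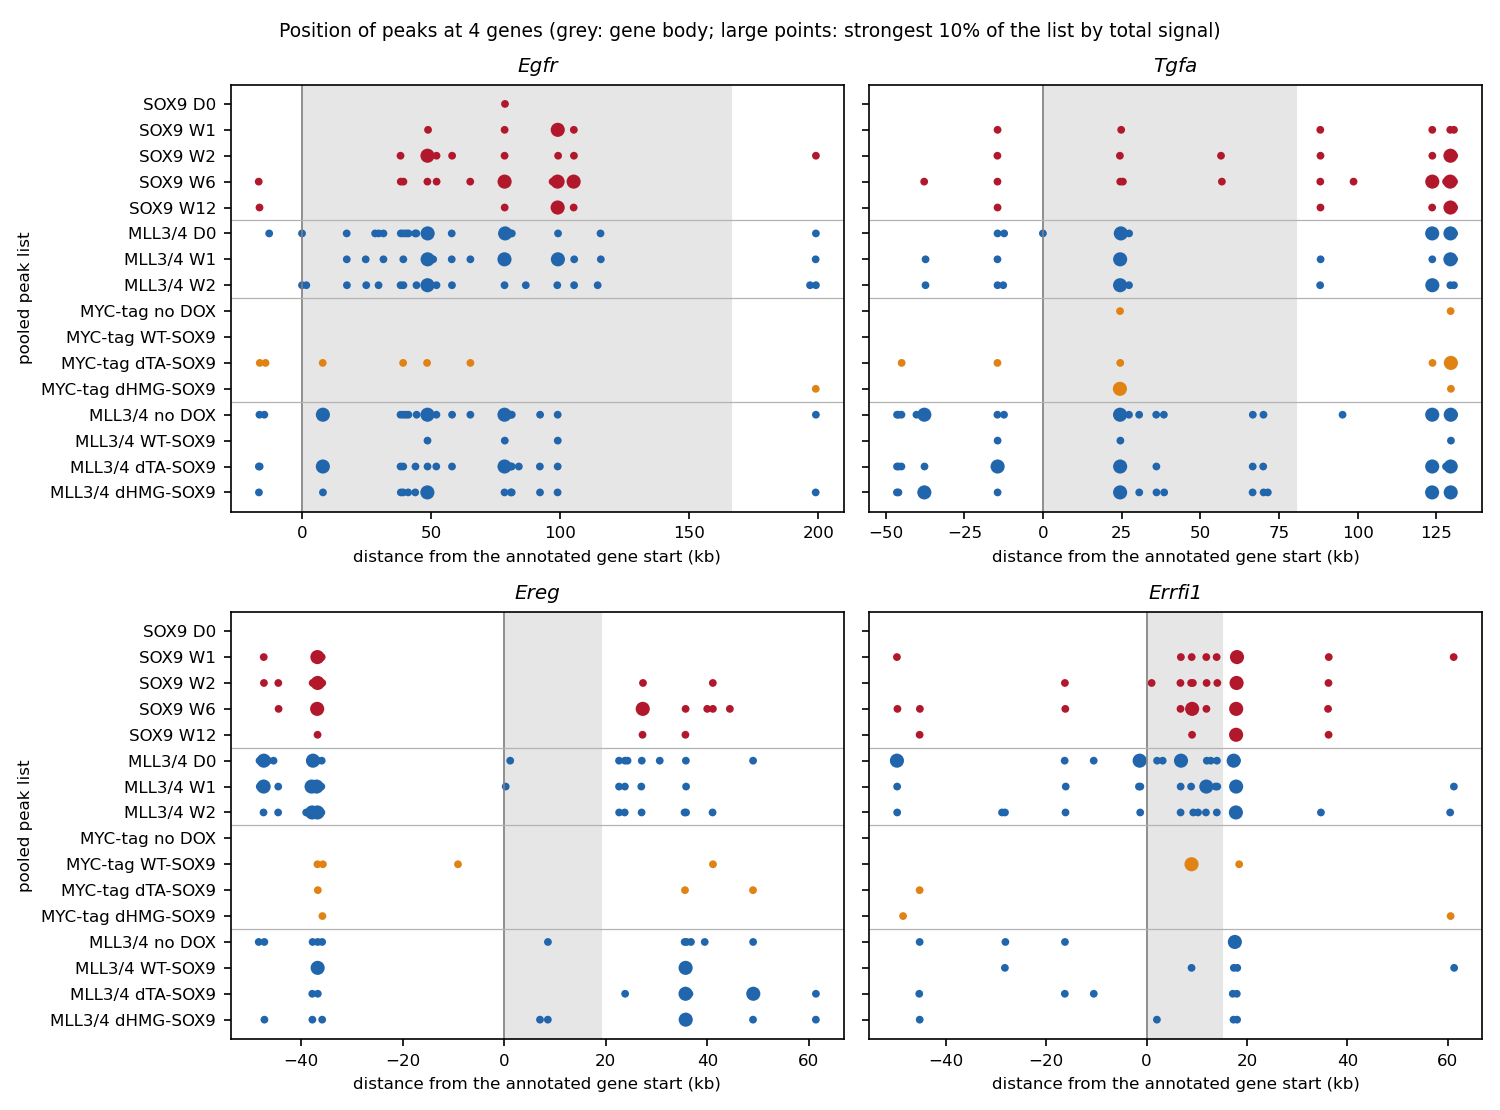
Position of each peak (points) in each of the 16 pooled lists (rows; red SOX9, blue MLL3/4, orange MYC tag) around *Egfr*, *Tgfa*, *Ereg* and *Errfi1*, by distance in kb from the annotated start. Grey marks the gene body and large points the strongest 10% of the list by total signal. At *Errfi1* the large SOX9 points recur 17991 bp downstream of the start, and at *Egfr* the SOX9 points fall mostly within the gene.

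*Egfr* (chr11:16752203-16918158, plus strand), which encodes the EGF receptor itself, held 1, 4, 8, 10 and 4 SOX9 peaks from D0 to W12. Nearly all of them had the start of *Egfr* as the nearest start of a protein-coding gene, as for 10 of 10 peaks at W6. The D0 peak lay in an intron 78498 bp downstream of the start (Egfr-24, chr11:16830088-16831314). Its maximum was 3228 RPKM at D0 and 4034, 6341, 7598 and 4136 RPKM at W1, W2, W6 and W12, and it had MLL3/4 in every in vivo list. The D0 peak held the AP1 word and no SOX word near its maximum. Over the whole D0 list, 45.3% of peaks held the AP1 word and 8.21% a SOX word. The peak with the highest total signal at both W1 and W12 was in Egfr-31 (chr11:16850608-16851871), also intronic, with ranks of 1063 of 15651 and 502 of 9745. Egfr-32 (chr11:16856950-16857881), whose sequence has 2 SOX words, had no MLL3/4 peak at D0 and one at W1 and W2, beside a SOX9 maximum of 4840, 6035, 6632 and 5009 RPKM. It held the strongest MLL3/4 peak gained at W1 at this gene, whose maximum of 7 was near the lowest of the W1 list (5). None of the cultured lists had a peak there.

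The other receptors held few SOX9 peaks of their own. *Erbb2* (chr11:98412470-98437716, plus strand), a receptor with no known ligand, had a single SOX9 peak, at W2 (1986 RPKM), which lay at the promoter of *Pgap3*. *Erbb3* (chr10:128567523-128589652, minus strand), a receptor with weak kinase activity that signals by pairing with the others, had 0, 5, 7, 7 and 3 SOX9 peaks from D0 to W12. In that gene-dense window, however, the nearest start was that of *Erbb3* for only 1 of 7 peaks at W2 and 1 of 7 at W6, and for 0 of 5 at W1 and 0 of 3 at W12. The elements with SOX9 at all 4 times were at the promoters of *Rpl41* (Erbb3-6, 2766, 7411, 4324 and 2114 RPKM) and *Rps26* (Erbb3-17, 3630, 4278, 4324 and 2482 RPKM). Erbb3-6 also had a peak in each MYC-tag list, the one without DOX (2024 RPKM) and the one of dHMG-SOX9 (4213 RPKM) included. The promoter of *Erbb3* itself was in the SOX9 list at W6 only, at 1805 RPKM, just above the limit of the lists.

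Among the ligands, *Tgfa* (chr6:86195223-86275719, plus strand), which encodes TGF-alpha, had the most SOX9 peaks, with 0 at D0 and 6, 7, 11 and 5 at W1, W2, W6 and W12. As many or more were found at 1.21% of all genes at W6 and at 2.01% at W12. The window was longer (180 kb) than the median of all genes (117 kb), and these numbers were not adjusted for length. The highest maxima at W2, W6 and W12 lay far downstream, in a cluster of 3 elements with SOX9 at all 4 times (Tgfa-21, Tgfa-23 and Tgfa-24) between *Tgfa* and *Fam136a*, whose start was the nearest one. Tgfa-23 (chr6:86324181-86325016), 129375 bp downstream of the *Tgfa* start, had maxima of 2363, 6112, 7220 and 3355 RPKM and ranked 348 of 20579 at W6 and 484 of 9745 at W12. It also had MYC-tag peaks of 2226 RPKM without DOX, 6974 RPKM with dTA-SOX9 and 2230 RPKM with dHMG-SOX9 but none with WT-SOX9. Upstream, Tgfa-6 held SOX9 at all 4 times with 2881, 5271, 4659 and 1838 RPKM, and MLL3/4 in all 7 lists. Tgfa-18, downstream of the gene, had no MLL3/4 peak at D0 and one at W1 and W2, with SOX9 at 2017, 2445, 2519 and 2895 RPKM. It was the only 1 of the 15 elements bound at all 4 times whose highest maximum came at W12.

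*Ereg* (chr5:91074622-91093646, plus strand) and *Areg* (chr5:91139599-91148432, plus strand) encode epiregulin and amphiregulin and lie next to each other, beside *Epgn*, a ligand gene outside the set. SOX9 peaks numbered 3, 7, 7 and 3 at *Ereg* and 1, 3, 7 and 3 at *Areg* from W1 to W12, with some peaks counted for both. The nearest start was that of *Ereg* for only 0 of 3, 1 of 7, 1 of 7 and 1 of 3 of its peaks. For *Areg* it was the gene's own for 1 of 1, 2 of 3, 6 of 7 and 2 of 3. The strongest SOX9 element was Ereg-7 (chr5:91036353-91039249), a 2897 bp region between *Epgn* and *Ereg* whose nearest start was that of *Epgn*. It held 2, 3, 1 and 1 SOX9 peaks and 3 MLL3/4 peaks at each of D0, W1 and W2. Its highest maximum was 5935, 6265, 8228 and 4090 RPKM, and at W6, where 1 peak spanned it, it ranked 115 of 20579. WT-SOX9 cells had 2 MYC-tag peaks in it (2791 and 2134 RPKM), dTA-SOX9 and dHMG-SOX9 cells 1 each, and the list without DOX none. Between both genes, Areg-4 had MLL3/4 at D0, W1 and W2 and SOX9 from W2 on, at 2750, 5877 and 2160 RPKM at W2, W6 and W12. Areg-15, in an intron of *Areg*, held SOX9 at all 4 times with 2017, 3591, 3694 and 1930 RPKM. Nothing was listed in the cultured cells at Areg-15 or Areg-4.

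*Hbegf* on chromosome 18, which encodes heparin-binding EGF-like growth factor, had 4, 4, 2 and 0 SOX9 peaks from W1 to W12 and was, with *Erbb2*, 1 of the 2 genes with none at W12. The element Hbegf-7, 662 bp from an annotated start of *Hbegf*, held SOX9 at W1, W2 and W6 with 2017, 3591 and 3862 RPKM and MLL3/4 at D0, W1 and W2. The strongest SOX9 peak of this window at W1 lay at the promoter of *Ankhd1* (2535 RPKM), where all 4 MYC-tag lists also had a peak. *Btc* (chr5:91357261-91402994, minus strand), the betacellulin gene, had SOX9 in 1 intronic element, Btc-2, at W6 (2687 RPKM) and W12 (1838 RPKM). There was no MLL3/4 peak in that element in any list.

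**Figure D3:**
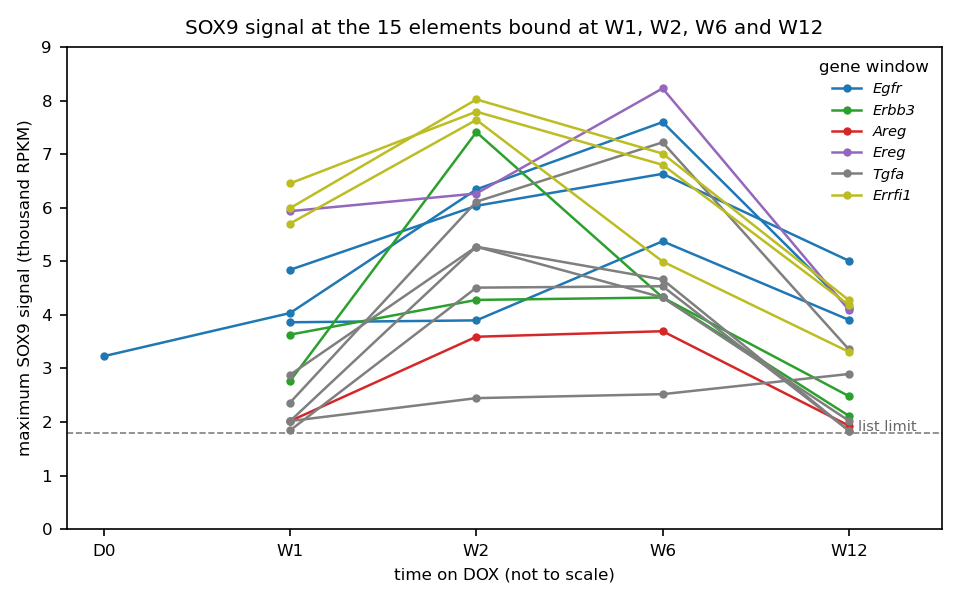
Maximum SOX9 signal (RPKM, axis in units of 1000) from D0 to W12 at the 15 elements with a SOX9 peak at W1, W2, W6 and W12, 1 line for each element, coloured by the gene window. The dashed line is the limit of 1800 RPKM below which the lists hold no peak. Of the 15 elements only Egfr-24 had a peak at D0, and 1 element, Tgfa-18, had its highest value at W12.

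MLL3/4 was already widespread at these genes before SOX9. The windows held 96 MLL3/4 peaks at D0, 68 at W1 and 77 at W2, at 8, 9 and 8 of the 9 genes, against 71.7%, 67.9% and 65.0% of all protein-coding genes. *Egfr* had 21, 14 and 18 peaks at the 3 times, *Ereg* 15, 11 and 12, *Erbb3* 14, 9 and 10 and *Areg* 11, 7 and 8. *Hbegf* had 12, 8 and 10, *Errfi1* 12, 11 and 13, *Tgfa* 10, 8 and 10, *Erbb2* 8, 3 and 2 and *Btc* 0, 1 and 0. The number was thus lower at W1 than at D0 for all genes but *Btc*, and by W2 it was above the D0 value at *Errfi1* only. Over the whole lists the number was 37072, 31539 and 29281.

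Of the D0 peaks at the 9 genes, 43 of 96 had no overlapping peak at W1 (44.8%, 35.2 to 54.7%), against 48.5% of the whole D0 list. At W2 the share lost was 37 of 96 (38.5%, 29.4 to 48.5%), against 48.7% of the list. The counts of lost peaks at W1 were 12 of 21 at *Egfr*, 4 of 8 at *Erbb2*, 7 of 14 at *Erbb3*, 4 of 10 at *Tgfa* and 4 of 12 at *Errfi1*. Of the peaks present at W1, 14 of 68 were new (20.6%, 12.7 to 31.6%), against 39.7% of the whole W1 list. At W2, 18 of 77 were new (23.4%, 15.3 to 34.0%), against 35.7% of the list. The share gained at these genes was thus below that of the whole list at both times, with intervals that did not reach it, and for the share lost this was so at W2 alone and only narrowly. Under the 6 other settings tried, the W1 gain stayed below in all 6, whereas the interval reached the whole-list value in 4 of 6 for the W2 gain and in 4 of 6 for the W2 loss. Of the new peaks at W2, 7 were at *Egfr* and 6 at *Errfi1*, and *Erbb2*, *Erbb3* and *Hbegf* had 0.

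The strongest lost and gained peaks show both directions within a gene. At *Egfr* the highest D0 peak without a W1 peak lay in an intron (chr11:16796245-16796713, rank 6187 of 37072) and overlapped an MLL3/4 peak again at W2. At *Erbb3* it lay at the promoter of *Pa2g4* and overlapped SOX9 at W1, W2 and W6. At *Tgfa* it was intergenic, and at *Areg* and *Ereg* it was the same intergenic peak in both windows, in each case with no in vivo SOX9. At *Errfi1* it lay 714 bp from an annotated start of the gene, at *Erbb2* at the promoter of *Grb7* and at *Hbegf* near *Slc4a9*, all without SOX9. Like the one at *Egfr*, those at *Erbb3*, *Tgfa* and *Hbegf* overlapped an MLL3/4 peak again at W2, and the others did not. At the starts of the genes themselves, MLL3/4 was listed at the *Egfr* promoter at D0 and W2, at the *Tgfa* promoter at D0 alone and at the *Erbb3* promoter at all 3 times. Within 1 kb of a start it was also listed at *Hbegf* at all 3 times, at *Errfi1* at D0 alone and at *Ereg* at W1 alone, and no in vivo MLL3/4 element lay at the promoters of *Areg*, *Btc* and *Erbb2*. The strongest peaks gained at W1 at *Egfr*, *Tgfa* and *Errfi1* were those in Egfr-32, Tgfa-18 and Errfi1-13, with ranks of 15995, 18215 and 16011 of 31539. Their maxima of 7, 9 and 6 were near the lowest of the W1 list (5), and each of these peaks held SOX9 at W1, W2, W6 and W12. The one at *Ereg* held SOX9 at W2 and W6, and those at *Erbb3*, *Areg* and *Btc* had no SOX9 peak at any time.

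SOX9 lay on MLL3/4 peaks that were kept more often than on those that were lost. At W1 a SOX9 peak overlapped 28 of 54 MLL3/4 peaks shared with D0 (51.9%, 38.9 to 64.6%), 4 of 14 gained peaks (28.6%, 11.7 to 54.6%) and 3 of 43 lost ones (6.98%, 2.40 to 18.6%). The values for the whole lists were 55.0%, 30.5% and 7.58%. At W2 they were 33 of 59 kept (55.9%, 43.3 to 67.8%), 6 of 18 gained (33.3%, 16.3 to 56.3%) and 2 of 37 lost (5.41%, 1.5 to 17.7%), against 58.4%, 38.5% and 9.06%. All 6 whole-list values lay inside the intervals of the 9 genes.

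**Figure D4:**
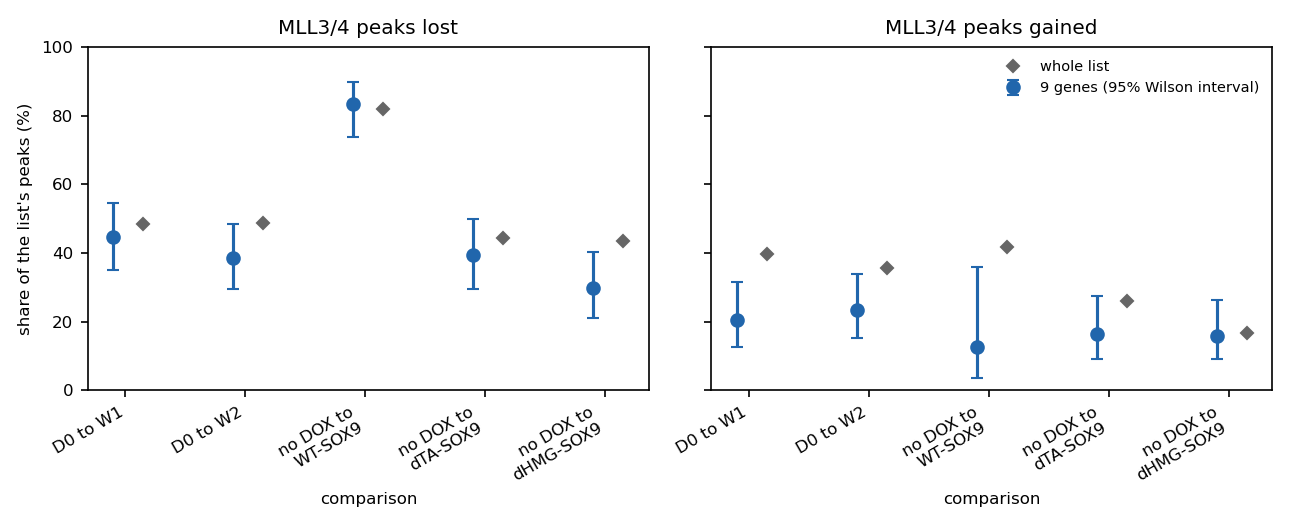
Share of MLL3/4 peaks lost (left) and gained (right) in each comparison, in percent, at the 9 genes (circles with 95% Wilson intervals over peaks) and over the whole list (diamonds). The loss from no DOX to WT-SOX9 was 83.3% at the genes and 82.0% over the list, and the gain from D0 to W1 was 20.6% against 39.7%.

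In culture, MYC-tag peaks at these genes numbered 6 in cells without DOX, 10 in those with WT-SOX9, and 21 and 12 in those with dTA-SOX9 and dHMG-SOX9, in lists of 2242, 6671, 11341 and 3980 peaks. They were found at 3, 5, 7 and 6 of the 9 genes, against 20.1%, 32.0%, 41.0% and 29.3% of all genes. The difference between WT-SOX9 and dTA-SOX9 did not hold in lists of equal length, where WT-SOX9 had 5, dTA-SOX9 4 and dHMG-SOX9 12 peaks. The list of replicate 1 alone without DOX, which was not cut at 1800 RPKM, held 18 peaks in the windows, more than the WT-SOX9 list. WT-SOX9 peaks were few and stood in 8 elements, 4 of them at *Errfi1* and *Ereg* (Errfi1-13, Errfi1-18, Ereg-7 and Ereg-8). The others were Areg-10 between *Ereg* and *Areg*, the promoter of *Rpl41* (Erbb3-6), a narrow peak near the start of *Rps26* (Erbb3-16) and the promoter of *Ankhd1* (Hbegf-21). Of the 8, 6 also held SOX9 in vivo (75.0%, 40.9 to 92.9%), against 54.2% of such elements in the series, and 2 (Erbb3-6 and Hbegf-21) had a peak without DOX (25.0%, 7.15 to 59.1%), against 5.95%. A SOX word was present in 4 of the 10 WT-SOX9 peaks (40.0%, 16.8 to 68.7%), against 34.2% of the list, and in 3 of 21 dTA-SOX9 peaks (14.3%, 4.98 to 34.6%), against 12.6%. *Egfr* and *Tgfa* had 0 WT-SOX9 peaks, whereas dTA-SOX9 had 6 and 5 there. Of the 21 elements with dTA-SOX9, 18 had MLL3/4 without DOX (85.7%, 65.4 to 95%), against 68.1% in the whole series.

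MLL3/4 peaks of cultured cells at these genes numbered 84 in cells without DOX, 16 in those with WT-SOX9, and 61 and 69 in those with dTA-SOX9 and dHMG-SOX9, in lists of 33975, 10543, 25948 and 23301 peaks. They were found at 9, 7, 8 and 8 of the 9 genes, against 70.9%, 42.4%, 65.9% and 64.3% of all genes. *Tgfa* had 19 peaks without DOX and 3 with WT-SOX9, *Egfr* 18 and 3, *Hbegf* 13 and 1, *Ereg* 11 and 2, *Erbb3* 10 and 2, *Areg* 7 and 1, *Erbb2* 6 and 0 and *Btc* 1 and 0. *Errfi1* was the exception in peak number, with 4 without DOX and 5 with WT-SOX9. It nevertheless lost 2 of its 4 peaks, and Errfi1-18 held 1 peak without DOX and 2 with WT-SOX9. Of the 2 gained peaks, the one with the higher total signal lay at the promoter of *Tnfrsf9*. With dTA-SOX9 the same genes had 13 (*Tgfa*), 15 (*Egfr*), 8 (*Hbegf*), 7 (*Ereg*), 10 (*Erbb3*), 6 (*Areg*), 2 (*Erbb2*) and 0 peaks (*Btc*), and *Errfi1* had 5. With dHMG-SOX9, *Hbegf* had 16 peaks, more than without DOX, *Tgfa* 14, *Egfr* 13 and *Errfi1* 4.

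The share of no-DOX peaks lost with WT-SOX9 was 70 of 84 (83.3%, 73.9 to 89.8%), against 82.0% of the list. With dTA-SOX9 it was 33 of 84 (39.3%, 29.5 to 50.0%), against 44.3%, and with dHMG-SOX9 25 of 84 (29.8%, 21 to 40.2%), against 43.5%. In lists of equal length these were 70.0% (54.6 to 81.9%) for WT-SOX9, 32.9% (23.2 to 44.3%) for dTA-SOX9 and 17.1% (10.1 to 27.6%) for dHMG-SOX9, against 58.3%, 34.5% and 28.9% of the lists. The loss with WT-SOX9 thus lay above that of both variants in either form, at the 9 genes as over the whole lists. However, the list with WT-SOX9 had the fewest peaks of the 4 and no known depth. For equal length each pair of lists was cut to the shorter one, which left 40, 73 and 70 no-DOX peaks at the 9 genes. The cut thus differed between the 3 comparisons, and the difference in list length between them was not removed. The descriptions of both MLL3/4 samples of WT-SOX9 cells with DOX also carry replicate number 2, whereas their titles carry 1 and 2, so which samples were pooled is uncertain. Of the 16 peaks with WT-SOX9, 2 were gained (12.5%, 3.5 to 36.0%), both at *Errfi1*, against 41.8% of the list. The gained share was 10 of 61 (16.4%, 9.16 to 27.6%) with dTA-SOX9, against 26.1%, and 11 of 69 (15.9%, 9.14 to 26.3%) with dHMG-SOX9, against 16.7%. A WT-SOX9 MYC-tag peak overlapped 2 of the 70 lost peaks (2.86%), 3 of the 14 kept (21.4%) and 1 of the 2 gained, against 1.75%, 21.5% and 53.5% over the whole lists. Of the 86 elements with MLL3/4 at D0 in vivo, 45 had it in cultured cells without DOX as well (52.3%), which was 59.2% of the 76 cultured ones, against 40.6% and 44.0% over all elements of the series.

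Of the other 38 genes of the pathway examined, 4 held a SOX9 peak at D0, against 6.04% of all protein-coding genes, and 26, 29, 29 and 20 did from W1 to W12. The latter were 68.4%, 76.3%, 76.3% and 52.6% of them, against 52.4%, 57.5%, 58.8% and 39.8% of all genes. Their median was 1, 2, 2 and 1 peaks at these times with DOX, against medians of 4, 7, 7 and 3 for the 9 genes and of 1, 1, 1 and 0 for all protein-coding genes. The highest numbers were at *Nrg1*, a ligand of the ERBB3 and ERBB4 receptors (9, 10, 18 and 10 peaks), *Gab1*, an adaptor (9, 12, 11 and 5), *Cblb*, a ubiquitin ligase (9, 10, 8 and 5) and *Lrig1*, a membrane inhibitor of the receptors (6, 10, 9 and 4). *Egf*, *Nrg3*, *Araf*, *Braf* and *Sos1* had 0 at all times. The window of *Epgn* overlaps that of *Ereg*, so its 4, 6, 6 and 3 peaks are partly the same ones. MLL3/4 at D0 was found at 36 of the 38 genes (94.7%), against 71.7% of all protein-coding genes. In culture it was at 34 (89.5%) without DOX and at 24 (63.2%) with WT-SOX9, against 70.9% and 42.4% of all genes.

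Across the 16 lists, the gene with the pattern most like that of *Tgfa*, which had the most SOX9 peaks summed over W1 to W12 (29, as had *Errfi1*), was *Proser2*, with a summed absolute difference in peak number of 18. It was followed by *Frmd4a* (20). The measure compares peak numbers in 16 lists that share cells and depth and gives no more than a likeness of counts.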

How the data were processed

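CNR libraries (40 bp paired-end reads) had been aligned to mm10 with Bowtie2 2.2.9, and the authors called peaks on the combined replicates, from fragments no longer than 120 bp, with SEACR (stringent, 0.01). The SOX9 and MYC-tag lists give each peak's maximum in RPKM, as deposited by the authors, and hold peaks above 1800 RPKM. The maxima of the pooled MLL3/4 lists are whole-number unscaled coverage signal as deposited. The total signal of a peak, a score as deposited by the authors, was used only as a rank within its list. Of 18 lists, 16 pooled ones were used, with 2 replicate 1 lists as alternatives. Mitochondrial peaks (3 in each pooled cultured MLL3/4 list) were left out. A further 9 samples were not analysed here.

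Overlap meant 1 bp or more, and a promoter was within 1 kb of a start. Lost, kept and gained refer to D0 or to cells without DOX. The elements named were, for each gene, those with the highest total SOX9 signal at W1 and W12, those with SOX9 at all times with DOX, with SOX9 at D0 or with a WT-SOX9 MYC-tag peak, and the strongest MLL3/4 peaks lost and gained at W1. Others (such as Errfi1-12, Errfi1-15, Errfi1-17, Areg-4 and Hbegf-7) were named after their values were seen. Counting was checked on simulated peaks. Python 3.11.15, pandas 2.3.3, numpy 2.4.6 and scipy 1.17.1 were used. The genes, the pathway list and the words were chosen with earlier results of these data known.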

Additional observations from a re-analysis of the deposited data

Results flagged for a closer look

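At 3 genes the number of MLL3/4 peaks was higher in one comparison and lower in another, and these opposite directions were not tested, since each group is 1 pooled list. At *Btc* the change was 1 peak from D0 to W1 in vivo and -1 from cells without DOX to WT-SOX9, while the W2 number equalled the D0 number (0). At *Errfi1* it was -1 from D0 to W1 and 1 in culture with WT-SOX9. At W2, however, there were 13 peaks against 12 at D0, so the directions were opposite at W1 only. In culture Errfi1-18 held 1 peak without DOX and 2 with WT-SOX9, and no more elements of that window held MLL3/4 than before. At *Hbegf* the change was -12 with WT-SOX9 and 3 with dHMG-SOX9, both set against the WT-SOX9 cells without DOX. For dHMG-SOX9 the effect of DOX and the difference between the cells thus cannot be told apart.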

How the results depend on the processing

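Of the 53 counts under another setting, 32 moved by over 1.5 times, all downwards but 1. With windows of 10 kb the SOX9 counts at W1, W2, W6 and W12 were 14, 22, 24 and 9, and the MYC-tag counts 2 without DOX, 3 for WT-SOX9, 8 for dTA-SOX9 and 2 for dHMG-SOX9. With maxima above 3600 RPKM they were 0 at D0, 9, 19, 20 and 6 from W1 to W12 and 1, 2, 4 and 1 in culture in the same order. With peaks whose nearest start was that of a member they were 15, 25 and 13 at W1, W2 and W12, and 2 without DOX, 4 with WT-SOX9 and 3 with dHMG-SOX9. The 50% of peaks with the highest total signal gave 20 at W1, 29 at W6, 4 for WT-SOX9, 8 for dTA-SOX9 and 6 for dHMG-SOX9. Lists of equal length gave 29 at W6, 5 with WT-SOX9 and 4 with dTA-SOX9, and were not made for D0 and cells without DOX. The replicate 1 list without DOX gave 18, more than the pooled list. Of the MLL3/4 shares, lists cut pair by pair to equal length gave losses of 25.0% to W2, 70.0% with WT-SOX9 (whole list 58.3%) and 17.1% with dHMG-SOX9. Windows of 10 kb gave a loss of 28.9% with dTA-SOX9, and the strongest 50% a gain of 15.0% at W2. The other 40 of 45 share values stayed within the intervals of the values given above. Fewer peaks enter under each of these settings but the replicate 1 list, and the cause was not tested further. No paired analysis was possible because the lists pool the replicates. The depth of the MLL3/4 lists is unknown, which limits every comparison of their peak numbers.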
